A study of Mus with 15 samples.

Results

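Narrow sites of histone H2A ubiquitination that recur across libraries of the mouse thalamus are described here. Their number was 1028, out of 72813 merged regions on chromosomes 1 to 19, or 1.41%. Each is a run of overlapping or touching peaks, pooled over 9 peak lists, that spans less than 5000 bp and holds at least 1 base that is under a peak in at least 7 of the 9 lists. Recurrence and width therefore chose the sites, and both are given below as description only.

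The mark measured, H2AK119ub (H2Aub below), was mapped by ChIPmentation, an immunoprecipitation of chromatin in which the sequencing adapters are put in by a transposase while the chromatin is on the beads. The question was whether chronic cocaine changes this mark in the thalamus and whether the change needs Maged1. The male mice, on a C57Bl6J background and 2 to 4 months old, were injected with saline on 3 days and afterwards, on 5 days, with either cocaine at 20 mg/kg or saline again. Each library came, by the labels, from 3 to 4 pooled thalami (the study's methods give a range with a lower minimum), so that the libraries, not single mice, are the replicates, and a change in the share of a cell type cannot be told apart from a change in the mark per cell.

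The WT mice carried the floxed Maged1 allele (Maged1 Loxp) without its deletion, and the cKO mice had the same allele deleted by a Cre recombinase driven from the Vglut2 promoter. The deletion is thus limited to cells that use or used this glutamatergic promoter, and other thalamic cells in the same pool keep the gene. Of the 9 lists, WT cocaine and WT saline gave 3 each, the cKO mice 1 under cocaine (replicate 2) and 2 under saline (replicates 2 and 3). The lists of replicate 1 in both cKO groups were kept out of the rule. They held 54201 and 79872 peaks, against 7235 to 25972 in the other 9, and serve below as libraries in which the sites were not chosen. Peak lists hold no expression, so neither the deletion nor the tissue could be checked against RNA. The read depth of each library is not given in the sources used here, apart from a minimum that the study states for all of them.

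H2Aub is a single ubiquitin on a lysine near the C-terminal end of histone H2A. It is written by Polycomb repressive complex 1 (PRC1), whose RING1 and RNF2 proteins are the ligases. PCGF proteins define its variants, and CBX proteins bring the canonical forms to the histone mark of Polycomb repressive complex 2. Deubiquitinases such as BAP1 and USP16 remove the mark. Unmethylated CpG islands at gene starts are its usual address, and genes under it, among them the Hox genes and other regulators of development, are mostly silent or kept ready for induction.

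The sites were short and moderately enriched. Their median width was 2820 bp, with an interquartile range of 1989 to 3701 bp and a full range of 127 to 4986 bp. The bases shared by at least 7 lists made up a smaller part, at a median of 329 bp per site (1 to 3272 bp). In sum the sites spanned 2.92 Mb, of which 0.527 Mb was covered in at least 7 lists. Fold enrichment, which is the immunoprecipitated signal over the input averaged by the peak caller across a broad peak, had a median over the sites of 3.78 (2.84 to 6.15). Here a site's value in a list is that of its highest peak, and its median is taken over the lists that have a peak there.

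A single base was covered in exactly 7 lists at 445 sites, in 8 at 347 and in all 9 at 236. Counted by any peak in the region, 116 sites had a peak in 7 lists, 315 in 8 and 597 in all 9. The rule does not ask for a peak in every group. No site lacked one in all lists of WT cocaine or of WT saline, but 15 had none in the cKO cocaine list and 22 none in both cKO saline lists, among them the site of Chrna3 and Chrnb4 described below. Just inside the recurrence limit, the 445 sites at 7 lists had a median fold enrichment of 3.70, and just outside it the 721 narrow regions at 6 lists had 3.62. Just inside the width limit, 75 sites of 4500 bp or more had a median of 3.95, and just beyond it 71 regions of 5000 to under 5500 bp had 3.99.

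Recurrence carried over to the libraries that the rule left out. A peak of cKO cocaine replicate 1 lay in 980 sites (95.3%) and a peak of cKO saline replicate 1 in 976 (94.9%); 947 had both and 19 had neither. Among narrow regions covered in 1 to 3 of the 9 lists these shares were 13.4% and 13.9%, and among those covered in 4 to 6 lists 68.7% and 64.0%. The 512 broad regions, which meet the same recurrence limit but span 5000 bp or more, had a peak in 512 and 510 of 512 cases. Wider regions catch a peak more easily, so the midpoint base was also read, and it was covered at 65.6% and 58.5% of the sites, against 7.33% and 7.44% of the regions in 1 to 3 lists.

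**Figure D1:**
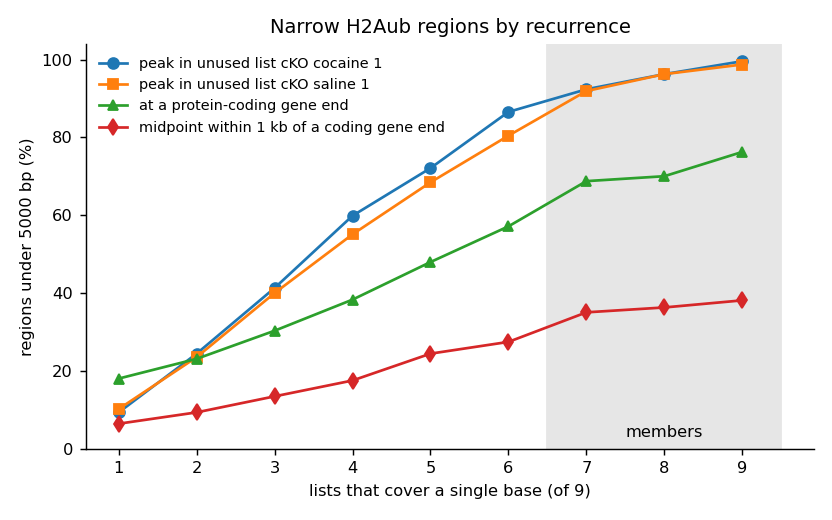
Share of regions under 5000 bp (vertical axis, percent) by the largest number of the 9 lists that cover a single base (horizontal axis), with the sites of the rule in the grey band. Lines give the share with a peak in each of the 2 lists that the rule did not use, the share that overlaps the window at a protein-coding gene end and the share with a midpoint within 1 kb of such an end; all 4 shares rise from 1 list to 9.

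Enrichment in the unused lists had a longer upper tail. The median over the sites was 4.44 in cKO cocaine replicate 1 and 4.85 in cKO saline replicate 1, and 19 and 58 sites reached 10 or more. No site reached 10 in any of the 9 other lists. In cKO cocaine replicate 1 the highest value was 24.1, inside Kcnj4, a gene for an inward rectifier potassium channel (chr15:79506125-79509246). The 9 lists gave 2.83 to 4.26 there. Crabp1, which encodes a retinoic acid binding protein, followed with 21.5 (3.17 to 4.36 in the 9 lists). The site shared by Lbx2, a homeobox gene, and Pcgf1, a PRC1 subunit gene, had 20.3 (3.64 to 5.76). In cKO saline replicate 1 the site nearest to Otx2, a homeobox gene of the anterior brain, stood at 25.7 (3.35 to 4.26 in the 9 lists), 6285 bp from the gene's end.

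Galr2, which encodes a galanin receptor, was among the highest 5 sites of both unused lists, with 15.0 and 21.8 against 2.99 to 4.09. Its site also met the window of Exoc7. Fgf4, a growth factor gene, had 20.8 in cKO saline replicate 1 (3.49 to 4.88). The remaining 2 of its highest 5 were remote from coding genes, a 391 bp site 282 kb from Pex2 with 22.9 and a site 321 kb from Med13l with 20.2. The order of the sites was not shared between the kinds of list. Over the 577 sites with a peak in all 11 lists, Spearman's rho of fold enrichment was 0.65 between the unused lists, 0.04 to 0.55 (median 0.22) between pairs of the 9, and -0.07 to 0.17 between an unused list and the 9. These points share their libraries and are given as description.

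Most sites lay at genes. In the mouse genome build mm10 with the RefSeq genes of GRCm38.p6, 823 sites (80.1%) overlapped the window from 5 kb outside to 2 kb inside an end of any annotated gene, and 729 (70.9%) that of a protein-coding gene. The gene table used here gives no strand, so starts and 3′ ends were not separated. Among narrow regions in 1 to 3 lists 19.5% lay at a protein-coding gene end, among those in 4 to 6 lists 44.9% and among broad regions 80.3%. By the midpoint, which does not depend on width, 36.2% of the sites, 7.27% of the regions in 1 to 3 lists and 27.7% of the broad regions were within 1 kb of a coding gene end. Of the 299 sites away from coding gene ends, 125 had their midpoint inside a coding gene, 67 were at the end of a noncoding gene and 107 were at neither.

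The bases shared by most lists sat beside the gene end rather than on it. For this the midpoint of the longest stretch covered in at least 7 lists was measured. It was 1300 bp from the nearest coding gene end at the median. Stretches centred within 500 bp numbered 147, while 235 were centred at 500 to 1000 bp, 183 at 1000 to 1500 bp and 56 at 1500 to 2000 bp. A further 108 lay at 2000 to 5000 bp, 210 at 5000 to 50000 bp and 89 beyond that. Of the 729 within 5 kb, 577 (79.2%) were centred inside a coding gene. The stretch itself covered a coding gene end at 66 of the 1028 sites (6.42%), whereas the whole site did at 430 (41.8%).

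**Figure D2:**
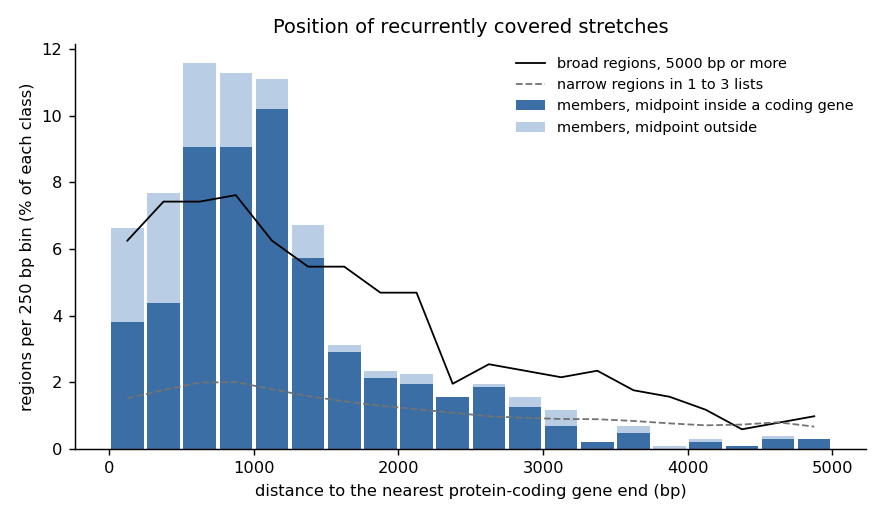
Distance from the midpoint of the longest stretch covered in at least 7 lists to the nearest protein-coding gene end (horizontal axis, bp) and share of regions per 250 bp bin (vertical axis, percent of each class). Bars are the 1028 sites, split by whether the midpoint lies inside a coding gene; the solid line is the 512 broad regions and the dashed line the narrow regions in 1 to 3 lists, for which the region's midpoint is used. The 3 bins from 500 to 1250 bp hold 11.6%, 11.3% and 11.1% of the sites, and the bin next to the gene end 6.62%.

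Altogether 848 of 20665 protein-coding genes (4.10%) had a site in the window at an end, against 495 (2.40%) with a broad region, and 54 had both. The windows of 2 or more coding genes met at 160 sites, and at those the gene cannot be told from position. At 62 genes there were 2 or more sites and at 6 genes 3, namely Casz1, Cdh22, Fignl2, Gfy, Pth2 and Tulp1. Per 100 coding genes the number of sites ran from 2.80 on chromosome 16 to 7.0 on chromosome 4.

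Developmental regulators were split by width. The Hox genes, which set position along the body axis, had a site at 2 of 39 genes, Hoxd1 (median fold enrichment 4.14) and Hoxb1 (3.95), while 97.4% had a broad region. Other homeobox genes had a site at 18 of 127 (14.2%) and a broad region at 80.3%. Alx1 (4.37), Pou4f2 (4.25), Irx1 (4.18) and Meis1 (4.16) led that group, and all 4 had a broad region at an end as well. How far their narrow site lay from the broad region was not measured. Other transcription factors of development had a site at 29 of 127 (22.8%) and a broad region at 59.8%. Bcl11b (4.19), a zinc finger factor of cortical and lymphoid cells, and Zic2 (4.17), a zinc finger factor of the neural tube, had no broad region. Olig3, a basic helix-loop-helix factor (4.13), had both.

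Signalling genes had a narrow site more often than a broad region, as did coding genes in general (4.10% and 2.40%). Morphogen and growth factor ligands had a site at 27 of 91 genes (29.7%), with 22.0% for broad regions. The examples of highest enrichment were Fgf4 (4.21), Inhbb, the activin beta B chain (4.18), Bmp8a (4.07) and Fgf9 (4.06), none of them with a broad region. Axon guidance genes had a site at 11 of 69 (15.9%) against 5.80% for broad regions. Unc5b, a netrin receptor (4.05), Ephb1 (3.89) and Epha2 (3.81), which are ephrin receptors, and Sema3f, a semaphorin (3.79), led them.

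Genes of neuronal signalling had sites and hardly any broad regions. Ion channel genes had a site at 19 of 134 (14.2%) and a broad region at 3.73%. Kcng3, a modifier of potassium channels (4.03), Hcn4, a pacemaker channel gene (3.98), and Cacna1g, a T-type calcium channel gene (3.94), were among the highest. Neurotransmitter receptor genes had a site at 16 of 101 (15.8%) and a broad region at 0.990%. The muscarinic receptor gene Chrm4 (4.14), the adrenergic receptor gene Adra2a (4.13) and Chrna5 (3.91), a nicotinic subunit gene, led this group. Chrna3 and Chrnb4, nicotinic subunit genes that are neighbours, shared 1 site (3.90).

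The immediate early genes, which neurons switch on within minutes of activity, had the highest share of any list examined. A site lay at 7 of 21 (33.3%), whereas 4.76% had a broad region. The genes were Egr4, Egr2, Fosl1, Fos, Nr4a3, Junb and Fosb, and all 7 sites had a peak in every one of the 9 lists. At Egr2 (chr10:67533351-67537244, centred 602 bp from the gene's end) the WT cocaine libraries had fold enrichments of 3.48, 4.60 and 3.90, the WT saline libraries 4.06, 5.04 and 4.17, the cKO cocaine library 4.17 and the cKO saline libraries 4.30 and 6.16. At Fos (chr12:85473949-85476105) the WT cocaine values were 2.94, 4.34 and 3.56, the WT saline values 4.59, 4.40 and 3.69, the cKO cocaine value 4.07 and the cKO saline values 3.83 and 3.79. The groups overlapped at both genes, and the lowest value at each was that of WT cocaine replicate 1, the library with the lowest median over all sites. At Junb (chr8:84977019-84978508) the WT cocaine values, 3.44, 3.63 and 3.51, lay below the WT saline values of 4.07, 4.40 and 3.86 without overlap. The cKO cocaine library had 3.64 there and the cKO saline libraries 3.44 and 4.06. The WT groups overlapped at the remaining 4 genes. Of all 1221 regions with a peak in the 9 lists, 7.04% had every WT cocaine value below every WT saline value.

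Of 39 genes of Polycomb proteins and H2A deubiquitinases, 5 (12.8%) had a site, and 7.69% had a broad region. The sites were 4 in number. Cbx2 and Cbx8, which are neighbours, shared a site (chr11:119034198-119037084, 3.93). Among the PCGF genes, sites lay at Pcgf1 (4.02) and Pcgf2 (3.46).

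The most bases covered in at least 7 lists were 3272, in a single stretch at Ovol1, which encodes an epithelial zinc finger repressor (chr19:5558005-5562407). Nearly as many lay at the homeobox gene Irx1, with 2948 bp, and at Amn, which takes part in vitamin B12 uptake, with 2945 bp. Sphk1, a sphingosine kinase gene, had 2933 bp. At Irx1 and Sphk1 these bases did not form a single stretch. The site at Ovol1 also met the window of Ap5b1, and that at Sphk1 the window of Ube2o. All 4 sites had a base covered in all 9 lists.

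The remaining lists lay on both sides of the 4.10% of all coding genes. Thalamic identity genes had a site at 1 of 16 (6.25%), Nkx2-2 (4.15), with broad regions at 31.2%, and glial and vascular marker genes at 2 of 23 (8.70%), namely Cldn5 (3.69), a tight junction gene of vessels, and Olig1 (3.51), a factor of oligodendrocytes. Zinc finger genes had a site at 5 of 415 (1.2%), with Zfp36l2 (4.18) and Zfp593 (4.14) the highest. No site lay at the 77 ribosomal protein genes, the 91 respiratory chain genes, the 57 clustered protocadherin genes or the 1468 olfactory and vomeronasal receptor genes.

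**Figure D3:**
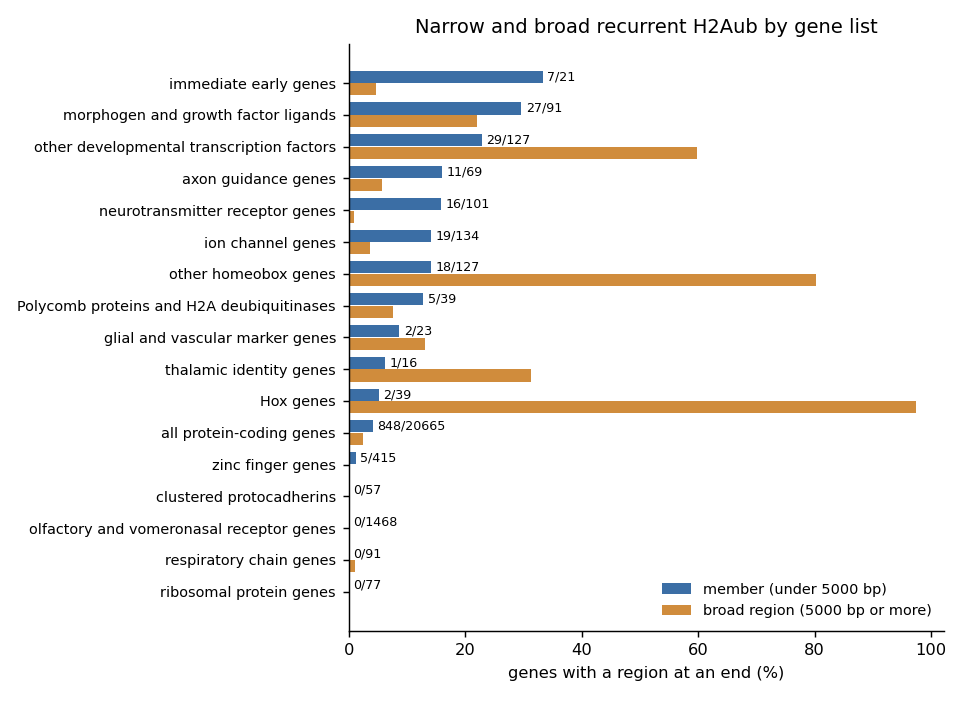
Share of the genes of each list (horizontal axis, percent) that have a site under 5000 bp, in blue, or a broad region of 5000 bp or more, in orange, in the window at an end; the labels give genes with a site over genes in the list. Immediate early genes, at 33.3%, have the highest share of sites, and Hox genes, at 97.4%, the highest share of broad regions.

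The densest stretch of the genome was at Casz1, which encodes a zinc finger factor of heart and neural development. The megabase from 148 Mb on chromosome 4 held 12 sites, 11 of them nearest to Casz1 and 8 centred inside the gene (chr4:148804366-148954893). No other protein-coding gene contained more than 3, the number at Bcl11b, Nfix, Rbfox3 and Gm8909. The Casz1 site 1874 bp from the gene's end (chr4:148804481-148809111) had the highest median fold enrichment, 4.68, of all sites covered in 9 lists outside a tRNA cluster described below. Its values were 3.81, 4.71 and 4.54 in WT cocaine, 4.30, 5.07 and 5.17 in WT saline, 4.71 in cKO cocaine and 4.22 and 4.68 in cKO saline. The remaining 11 sites of the megabase had medians of 3.39 to 3.87, below this one.

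Other megabases with many sites were that from 117 Mb on chromosome 11 (7 sites, nearest to Septin9 and Socs3), that from 45 Mb on chromosome 7 (7 sites, among them at Slc17a7, which encodes the vesicular glutamate transporter VGLUT1, Tead2 and Kcna7) and those from 74 Mb on chromosome 1 and 120 Mb on chromosome 10, with 6 sites each, as several others had. The former was nearest to Wnt6 and Cdk5r2 among others, and the latter to Hmga2 and its neighbours. A site was within 20 kb of a broad region at 107 of 1028 (10.4%), against 5.48% of the narrow regions in 1 to 3 lists, so that most sites stood apart from broad domains.

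Next to Casz1, the sites of highest enrichment covered in all 9 lists were at Tulp1 (4.52), a gene of photoreceptors, Syde2 (4.40), Trim54 (4.35), a muscle gene, and Prdm1 (4.33), a transcriptional repressor gene. The site at Trim54 also met the windows of Ucn and Mpv17. Further sites of this rank were not at a gene. They were 30.9 kb from Sox1 (4.36), 127 kb from Insig2 (4.36) and 22.3 kb from Evx1 (4.34).

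The highest values of all belonged to a cluster of tRNA genes on chromosome 1, near Fcgr3, and to the array of 5S rRNA genes on chromosome 8. The tRNA cluster (chr1:171064164-171081946) has 15 tRNA genes and 4 sites. The 5S array (chr8:123538784-123622046) has 48 genes, with 2 sites in it and 1 beyond its last gene. These genes are transcribed by RNA polymerase III and exist as near-identical copies, among which reads can be hard to place. By the study's methods only alignments above a mapping quality limit were kept, and the part of read placement in these values was not tested. The sites of the array were selected for description after their values were seen, as were 2 of the 4 in the cluster. The sites at chr1:171078147-171078808 and chr8:123624349-123625060 had medians of 3.77 and 3.73, near the 3.78 of all sites.

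One site of the cluster (chr1:171069619-171070145, 527 bp, 3976 bp from the end of Fcgr3) had fold enrichments of 3.75, 2.64 and 3.54 in WT cocaine and of 5.41, 5.72 and 5.49 in WT saline. The cKO cocaine library had 6.05 and the cKO saline libraries 5.45 and 5.02. All 3 WT cocaine libraries thus lay below every other library, the unused lists included, where cKO cocaine replicate 1 had 5.49 and cKO saline replicate 1 had 5.12. The cluster's site at chr1:171062993-171064964 had 3.86, 4.61 and 4.91 in WT cocaine and 6.44, 7.84 and 4.23 in WT saline, and there the groups overlapped.

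At the 5S site of highest enrichment (chr8:123616971-123617702, median 6.15) the WT cocaine libraries had 5.49, 3.93 and 4.54, and the 2 WT saline libraries with a peak had 9.16 and 6.33. The cKO cocaine library had 7.48 and the cKO saline libraries 5.98 and 6.88. At the array's site at chr8:123600572-123601111 the WT cocaine libraries with a peak had 4.14 and 4.50, and the WT saline libraries 7.06, 6.10 and 4.62. WT cocaine was the lowest group at both sites. The third site of the array (chr8:123624349-123625060) had 3.44, 3.24 and 3.72 in WT cocaine and 3.83, 4.01 and 5.18 in WT saline, with 3.73 in cKO cocaine and 3.70 in 1 cKO saline library.

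The other sites of the tRNA cluster were not alike. At chr1:171073820-171074546 the WT cocaine libraries with a peak had 4.24 and 6.58, and the WT saline libraries 7.78, 5.62 and 5.38. The cKO cocaine library had 5.94 and the cKO saline libraries 4.74 and 4.52, so that the groups overlapped and WT cocaine was not the lowest. At chr1:171078147-171078808 the WT cocaine libraries with a peak had 3.33 and 3.77, the WT saline libraries with a peak 4.41 and 4.06, the cKO cocaine library 3.64 and the cKO saline libraries 3.38 and 4.50. These 2 sites and the 3 of the array lacked a peak in at least 1 list and were left out of the test below, which took regions with a peak in all 9.

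**Figure D4:**
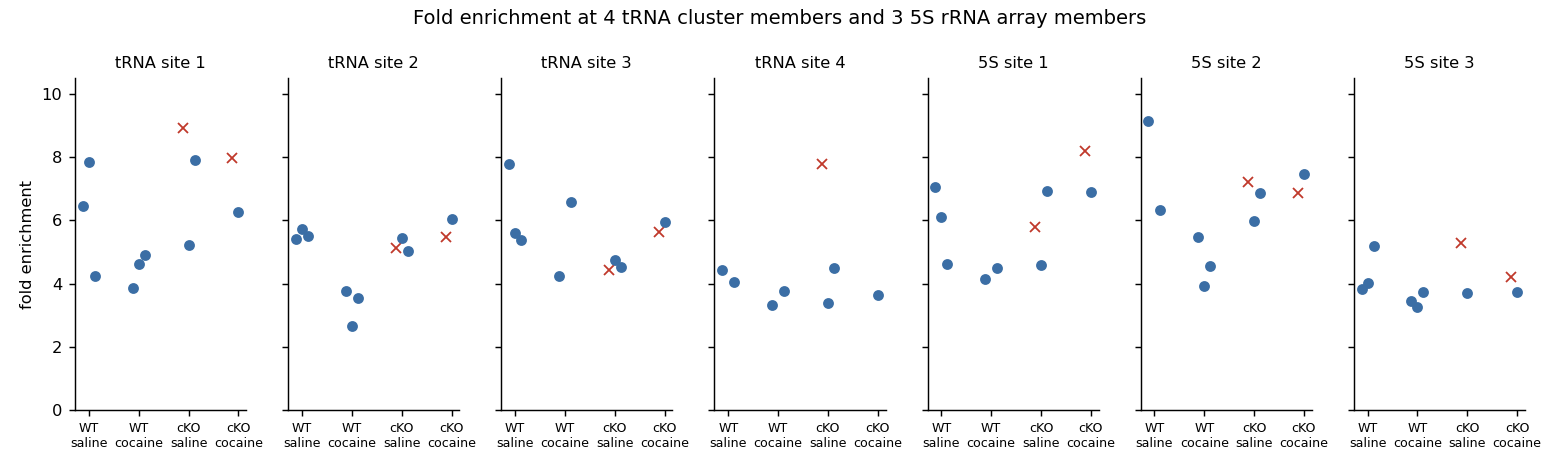
Fold enrichment (vertical axis) in each library, by group, at the 4 sites of the tRNA cluster and the 3 sites of the 5S rRNA array, in genome order. Blue points are lists that the rule used, red crosses lists that it did not; a library without a peak has no point. At tRNA site 2 the WT cocaine points, at 2.64 to 3.75, lie below all others.

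Fold enrichment was compared between the groups at every region with a peak in all 9 lists, 597 sites and 624 wider or less recurrent regions together, with limma on log2 values centred on each library's median. For WT cocaine against WT saline, 1 of 1221 regions was called at an adjusted p of at most 0.05, which is 0.0819%. It was the tRNA site at chr1:171069619-171070145, lower in WT cocaine by a log2 difference of -0.71 ± 0.12 (SE; limma adjusted p = 0.0227), in 3 of 3 libraries. Without WT saline replicate 1 its adjusted p was 0.157, and without WT cocaine replicate 3 it was 0.0969, at log2 differences of -0.71 and -0.74. The labels list 1 input sample for each group, and a difference in input between the groups cannot be told apart from one in H2Aub if each group's libraries were set against their own input.

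The treatment difference at this site was 0.98 ± 0.22 (log2, SE) greater in cKO than in WT, with a limma adjusted p of 0.176 over the 1221 regions, a contrast added after the value had been seen. None of the regions was called for it (0.0%), and 46 of the 597 sites (7.71%) and 6.14% of all regions had an unadjusted limma p below 0.05. The cKO side of it rests on 1 cocaine library, which is assumed to vary like the other groups. Without centring on the library median limma called this site for the contrast, at an adjusted p of 0.0235, and it did so without WT cocaine replicate 1, at 0.0419. Over the other alternatives its limma adjusted p reached 0.520, without WT cocaine replicate 3.

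With the highest peak per site, no other site was called between WT cocaine and WT saline. There limma gave 90 of the 597 sites (15.1%) an unadjusted p below 0.05, against 13.2% of all 1221 regions. The next lowest p-values were at Kcng3 and Tulp1. Kcng3 had 4.03, 4.50 and 4.33 in WT cocaine and 3.61, 3.79 and 3.52 in WT saline, without overlap, a log2 difference of 0.29 ± 0.07 (SE; limma adjusted p = 0.0962). Tulp1 had 4.55, 4.57 and 4.52 in WT cocaine and 3.53, 4.24 and 3.58 in WT saline, also without overlap, a log2 difference of 0.32 ± 0.08 (SE; limma adjusted p = 0.0962). Of all 1221 regions, 2.7% had every WT cocaine value above every WT saline value as deposited, and 12.1% on the centred scale of the test. With the length-weighted mean of a site's peaks in place of the highest, limma called Kcng3 and Tulp1, at adjusted p of 0.0297 and 0.0342. It then called 19 of the 1221 regions, 15 higher and 4 lower in WT cocaine. Of the 597 sites it called 9, with 7 higher and 2 lower. Over all alternatives the limma adjusted p of Kcng3 and of Tulp1 reached 0.734. At the immediate early genes none of the 7 sites was called in either direction, with a lowest limma adjusted p of 0.305, at Egr4, and 0.322 at Junb (log2 difference -0.17 ± 0.07, SE).

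Between cKO saline and WT saline limma called no region (0.0%), with 78 of the 597 sites (13.1%) and 10.3% of all regions at an unadjusted p below 0.05. A site 55.1 kb from Zfp644 had the lowest p, with 5.59 and 4.75 in cKO saline and 3.78, 3.82 and 3.69 in WT saline, a log2 difference of 0.45 ± 0.09 (SE; limma adjusted p = 0.0999). A site 247 kb from Prok2 (0.40 ± 0.09) and one at Doc2b (-0.35 ± 0.08), a gene of vesicle release, followed at the same limma adjusted p of 0.0999. The cKO saline group had 2 libraries, and with either of them left out limma called 4 or 8 of all regions.

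For cocaine against saline over both genotypes limma again called no region (0.0%), with 55 of the 597 sites (9.21%) and 8.19% of all regions at an unadjusted p below 0.05. The lowest p was at a site 16.5 kb from Faah, which encodes the enzyme that degrades the endocannabinoid anandamide. Its values were 3.62, 4.12 and 4.09 in WT cocaine, 3.68, 4.10 and 3.98 in WT saline, 5.56 in cKO cocaine and 3.89 and 3.91 in cKO saline, a mean log2 difference of 0.32 ± 0.06 (SE; limma adjusted p = 0.0810). The WT groups overlapped there. Sites 25.0 kb from the homeobox gene Dbx1 (0.26 ± 0.06) and 127 kb from Insig2 (0.25 ± 0.06) followed, at limma adjusted p of 0.183 and 0.258. The cKO arm of this comparison rests on 1 cocaine library. With the highest peak per site and all 9 lists, no site at the end of a gene of the gene lists was called in any comparison. Kcng3, an ion channel gene, was called between the WT groups with the length-weighted mean, as given above. Across the 597 sites the median log2 difference was 0.00 for WT cocaine minus WT saline, 0.01 for cKO saline minus WT saline and -0.01 for both genotypes, and over all 1221 regions 0.01, 0.00 and 0.00. Centring each library on its median holds these medians near 0. Without it they were -0.05, 0.01 and -0.07 over the sites and -0.04, 0.00 and -0.06 over all regions.

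At the median of the 597 sites with a peak in all 9 lists, the highest of the 9 values was 1.33 times the lowest (interquartile range 1.26 to 1.41), and it was 2 times or more at 3 of them. Only called peaks enter this ratio, which keeps low values out. The medians of the 1028 sites themselves lay close together, with an interquartile range of 3.65 to 3.93. Over the 236 sites with a base covered in all 9 lists, the median fold enrichment was 3.50, 4.14 and 3.97 in WT cocaine, 3.94, 4.20 and 3.78 in WT saline, 3.84 in cKO cocaine and 3.83 and 4.10 in cKO saline. The groups overlapped, and WT cocaine minus WT saline was -0.04 ± 0.08 (log2, SE), while cKO saline minus WT saline was 0.00 ± 0.09.

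Peaks over the sites summed to 2133, 1844 and 1485 kb in WT cocaine and to 1451, 916 and 1104 kb in WT saline. The cKO cocaine library had 1420 kb and the cKO saline libraries 1015 and 563 kb. WT cocaine lay above WT saline without overlap, by a log2 difference of 0.66 ± 0.31 (SE), or 1.58-fold, and with both genotypes the difference between cocaine and saline was 0.79 ± 0.28. Between cKO saline and WT saline it was -0.59 ± 0.35 and rested on cKO saline replicate 3, without which it was -0.16. These sums carry no p-value, since the sites were chosen on the same lists.

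The whole lists moved with the sites. All peaks on chromosomes 1 to 19 covered 17.2, 15.0 and 10.4 Mb in WT cocaine and 11.1, 5.54 and 8.39 Mb in WT saline, and the sites took 12.3 to 14.3% and 13.1 to 16.6% of that length. With each list cut to its 7235 peaks of lowest p, the length at the sites was 1881, 1463 and 1233 kb in WT cocaine and 1064, 859 and 949.7 kb in WT saline, still without overlap. The part of list length in this difference was otherwise not tested.

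**Figure D5:**
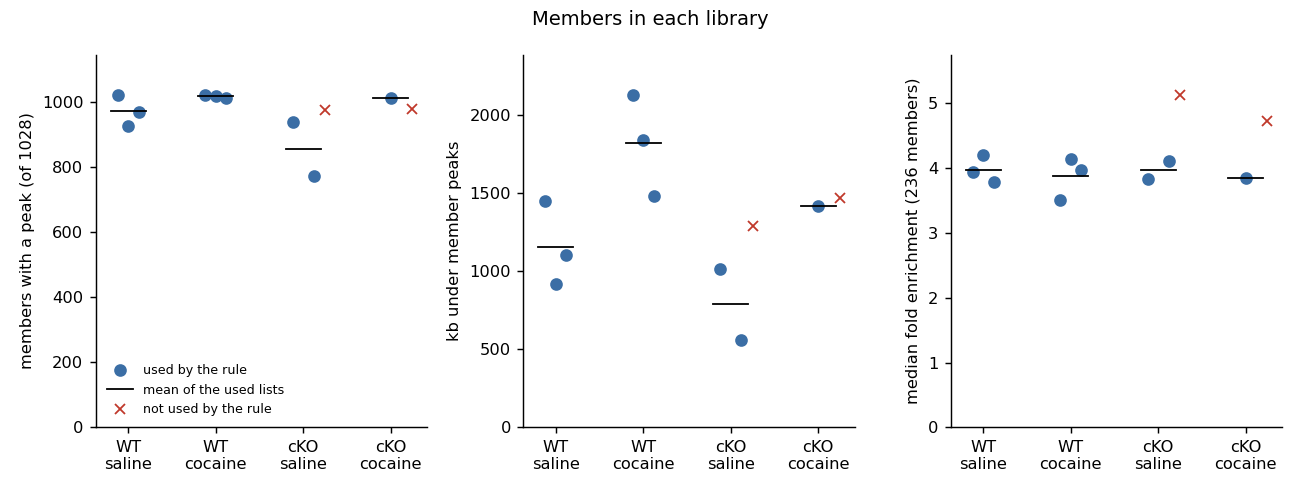
Number of sites with a peak, kb under peaks at the sites and median fold enrichment at the 236 sites covered in 9 lists (vertical axes) for each library, by group. Blue points are the lists used by the rule, black lines their means and red crosses the lists not used. The kb values of WT cocaine (1485 to 2133) lie above those of WT saline (916 to 1451), and the enrichments overlap.

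Fewer sites had a peak in the shorter lists. WT cocaine libraries had a peak at 1023, 1019 and 1013 sites and WT saline libraries at 1024, 927 and 971. In cKO the counts were 1013 with cocaine and 941 and 774 with saline. The 254 sites without a peak in cKO saline replicate 3, the shortest list, had a median width of 2188 bp against 3054 bp for the others, so that the narrower sites were missed more often there.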

How the data were processed

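H2AK119ub ChIPmentation libraries from pooled mouse thalami were represented by 11 deposited broad peak lists; the 4 total input chromatin samples were not analysed here. By the study's methods and the submitters' processing notes, reads were trimmed, mapped to mm10 with Bowtie2 2.3.4.1 and filtered on mapping quality, and peaks were called in each library with MACS2 2.1.1.20160309.3 against input. The deposited values are the fold enrichment, a linear ratio over input, and, for each peak, a −log10 p-value with its −log10 q-value, as the authors' caller gave them; the deposited score column was not used. Peaks reached q = 0.0997, and 9.89 to 32.9% of a list lay above 0.05.

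Peaks on chromosomes 1 to 19 were merged with a script in Python (pandas, numpy), and annotated with RefSeq genes of GRCm38.p6. The sites and gene lists were chosen with earlier results of these data known. Regions with a peak in all 9 lists were compared with limma 3.58.1 (R 4.3.3), as group means with a moderated variance and Benjamini-Hochberg adjustment, after a test on simulated data. P-values measure the spread between libraries of pooled tissue. Planned permutation tests of the length and median enrichment over the sites were not used, since the sites were chosen on the same lists; differences carry a standard error from the spread pooled over the 4 groups. Named were the 10 sites covered in all 9 lists with the highest median and the 5 with most bases in at least 7 lists. Also named were the 5 highest in each unused list and the 3 lowest p of a contrast. The 5 fullest megabases and up to 4 genes per list completed them. Alternatives covered thresholds, summaries, list length, replicate blocks and single libraries. Some named genes are not reported here.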

Additional observations from a re-analysis of the deposited data

Results flagged for a closer look

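On chromosome X, which the rule leaves out, 3 of 173 merged regions met its other terms. Those near Esx1 and Irs4 were 8810 and 1538 bp from the gene's end, and each had a base covered in 7 lists. Their median fold enrichment was 4.06 at both, within the range of the sites on chromosomes 1 to 19. The 3 regions were singled out because they carry signal outside the chromosomes analysed. No group had the 4 libraries that a test for a library apart from its group needs.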

How the results depend on the processing

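The number of sites was 583 with a base in 8 or more lists, 236 with all 9 and 571 with a width limit of 3000 bp; a limit of 10000 bp and peaks of q at most 0.05 left it within 1.5 times of 1028. The share at gene ends was 77.1% with 2 kb on both sides and 70.9% with coding genes only. With the length-weighted mean of the peaks limma called 19 regions between WT cocaine and WT saline, 9 of them sites, and 1 between cKO saline and WT saline; without centring it called 1, the tRNA site, for the difference of the treatment differences. The 2 cKO replicates 1, when added, moved the median enrichment at the sites to a log2 difference of 0.12 for cKO saline minus WT saline and 0.13 for cKO minus WT over both treatments. Leaving out single libraries gave 0 to 2 calls between WT cocaine and WT saline, 0 to 8 between cKO saline and WT saline and 0 to 1 for the difference of treatment differences. For kb under peaks it gave log2 differences of -1.01 to -0.16 for cKO saline minus WT saline and of -0.18 to 0.67 for the difference of treatment differences. The causes were not tested. Without the single cKO cocaine library the comparisons over both genotypes had no value.

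Replicate numbers are shared between WT groups, but same-numbered libraries did not deviate together in centred fold enrichment (correlations of -0.01, 0.06 and 0.02). Centring takes out shifts of a whole library, so these values cannot tell whether the number marks a pairing or a batch. With a replicate block limma called 1 region between WT cocaine and WT saline, the same tRNA site. The log2 difference in kb was 0.66, with an SE of 0.18 over same-numbered WT libraries. With the spread pooled over the groups the SE was 0.31. Depth per library is not given in the sources used here beyond a stated minimum, so the part of depth in missing peaks was not tested.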

Other observations

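Further sites lay beside other repeated genes, and were picked out after their values were seen. At 8 sites a tRNA or rRNA gene was within 500 bp, 3 of them in the tRNA cluster and the 5S array. The other 5 were on chromosomes 3 and 13, with median fold enrichments of 3.95 to 4.20 and no value above 4.62 in the 9 lists, well under the 7.92 and 9.16 reached in the cluster and the array. On chromosome 17, sites lay at 4 genes of the H2-Q family of nonclassical MHC class I, namely H2-Q1 (3.78), H2-Q2 (3.82), H2-Q6 (3.84) and H2-Q10 (4.08). Members of this family are alike in sequence, and the part of read placement in their values was not tested.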
